A study of Saccharomyces cerevisiae with 4 samples.

Results

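SCJ1, GPI8, PMT6 and LRG1 are budding yeast genes for protein folding in the endoplasmic reticulum (ER) and for building the cell wall. They are 4 of the 5794 features on the arrays, with 1 feature per gene. They were picked because their intensities differed between strains that lived on different cytosolic Hsp70 proteins, so the differences below are described and not tested. SCJ1 was 12.8-fold lower in cells living on Ssa4 than in cells living on Ssa1. GPI8, PMT6 and LRG1 were lower in cells living on Ssa3, by 6.12-fold, 2.36-fold and 2.02-fold. These 3 were no longer past 2-fold once the median ratio of nearby features on the chip was subtracted. They were then at 0.644, 0.537 and 0.585 of Ssa1, and SCJ1 in Ssa4 was at 0.258. What part the place on the chip had in the values of the 4 genes was not tested. In cells living on Ssa2 all 4 genes were within 2-fold of Ssa1. The study also measured SCJ1 and GPI8 by RT-qPCR, which was not analysed here, so these folds are those of the arrays alone.

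All strains derived from G402, a MATa strain with his3, leu2, lys2, trp1 and ura3 markers that also carries kar1-1, SUQ5 and ade2-1. Its chromosomal SSA genes are all deleted (ssa1::KanMX, ssa2::HIS3, ssa3::TRP1 and ssa4::URA3-1f). Each strain received Ssa1, Ssa2, Ssa3 or Ssa4 from a LEU2 plasmid by plasmid shuffle, and every plasmid gene was driven by the constitutive SSA2 promoter. The heat-inducible proteins Ssa3 and Ssa4 were therefore made without heat, and no strain had its native SSA genes. All 4 cultures were [psi-], that is, free of the prion form of Sup35. Each strain was hybridized once, as Cy5-labelled amplified RNA on a spotted oligonucleotide chip, after RNA of several extractions had been pooled. There are no replicates, so no value below has a standard deviation, and the number of arrays limits the precision. In such bulk RNA, fewer cells that express a gene and less of its RNA in each cell cannot be told apart.

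Proteins that will sit in the yeast cell wall enter the secretory pathway at the ER. There they fold with the help of the lumenal Hsp70 Kar2 and its J-protein partners, receive mannose on serine and threonine residues, and in many cases are cut and joined to a glycosylphosphatidylinositol (GPI) lipid anchor. At the cell surface, the GTPase Rho1 switches on protein kinase C and glucan synthesis, which together maintain the wall. SCJ1 encodes an ER J-protein that works with Kar2. GPI8 encodes the catalytic subunit of the GPI transamidase, which attaches the anchor. PMT6 encodes a member of the protein O-mannosyltransferase family. LRG1 encodes a GTPase-activating protein that switches Rho1 off. The study also grew these strains on sodium dodecyl sulfate, which damages the cell wall, and the 4 genes bear on the question of whether strains with different Ssa proteins differ in the making of the wall.

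The arrays gave values for 5776 to 5786 features, and their medians lay between 200.4 and 201.5 units of normalized intensity. Features are named here where all 4 intensities equal a row of the study's gene lists, which gives 946 names (16.3% of features). Those lists hold genes past 2-fold, so the named features are not a sample of the genome. As a check of the labels, SSA2 read 2505 on the Ssa2 array and 9.01, 1.21 and 2.38 on the Ssa1, Ssa3 and Ssa4 arrays. SSA2 was bright on the array of the strain that carries it and dim on the others, but this does not tell those 3 arrays apart.

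The J-protein gene SCJ1 (YMR214W) read 296 units of normalized intensity in Ssa1, 382 in Ssa2, 179 in Ssa3 and 23.2 in Ssa4. The Ssa2 array was the highest, the Ssa3 array was intermediate, and the Ssa4 array stood far below the other 3. Relative to Ssa1, the intensity of SCJ1 was 1.29 in Ssa2, 0.605 in Ssa3 and 0.0783 in Ssa4. The ratio in Ssa4 was the second lowest of 5776 features. Of all features, 7.10% were below 0.5 in Ssa4, and of the 2108 features with an Ssa1 intensity within 2-fold of that of SCJ1, 4.03% were. In Ssa3, 5.14% of features had a ratio as low as that of SCJ1. Between the heat-inducible proteins, SCJ1 was 7.72-fold lower in Ssa4 than in Ssa3, and from the highest array to the lowest its intensity spanned 16.5-fold.

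The GPI transamidase gene GPI8 (YDR331W) read 172 in Ssa1, 192 in Ssa2, 28.1 in Ssa3 and 166 in Ssa4. It was low on the Ssa3 array, and the other 3 arrays lay close together. The ratios to Ssa1 were 1.12 in Ssa2, 0.163 in Ssa3 and 0.966 in Ssa4. The ratio in Ssa3 ranked sixth lowest of 5779 features, with 1.94% of all features below 0.5 in that strain and 2.18% of those with an Ssa1 intensity within 2-fold of that of GPI8. GPI8 was 5.91 times as high in Ssa4 as in Ssa3. For this feature the Ssa4 array was like those of the constitutive proteins, and the Ssa3 array was not. Nearby features on the chip were also low on the Ssa3 array. With their median subtracted, GPI8 was at 0.644 of Ssa1 there.

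The O-mannosyltransferase gene PMT6 (YGR199W) read 975 in Ssa1, 1061 in Ssa2, 413 in Ssa3 and 864 in Ssa4. Again the Ssa3 array was the low one. Its ratios to Ssa1 were 1.09 in Ssa2, 0.424 in Ssa3 and 0.886 in Ssa4, and the ratio in Ssa3 was number 50 from the lowest of 5779 features. Among features with an Ssa1 intensity within 2-fold of that of PMT6, 1.61% were below 0.5. PMT6 was 2.09 times as high in Ssa4 as in Ssa3.

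The Rho1 regulator gene LRG1 (YDL240W) read 97.3 in Ssa1, 101 in Ssa2, 48.1 in Ssa3 and 77.3 in Ssa4. The Ssa3 array was the lowest, and Ssa4 lay between Ssa3 and Ssa1. The ratios to Ssa1 were 1.04 in Ssa2, 0.494 in Ssa3 and 0.794 in Ssa4. LRG1 in Ssa3 was just past the 2-fold limit, at number 105 from the lowest of 5779 features, of which 112 (1.94%) were below 0.5. Among features with an Ssa1 intensity within 2-fold of that of LRG1, 2.36% were below 0.5. SCJ1 in the same strain, at 0.605, was not past the 2-fold limit.

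**Figure D1:**
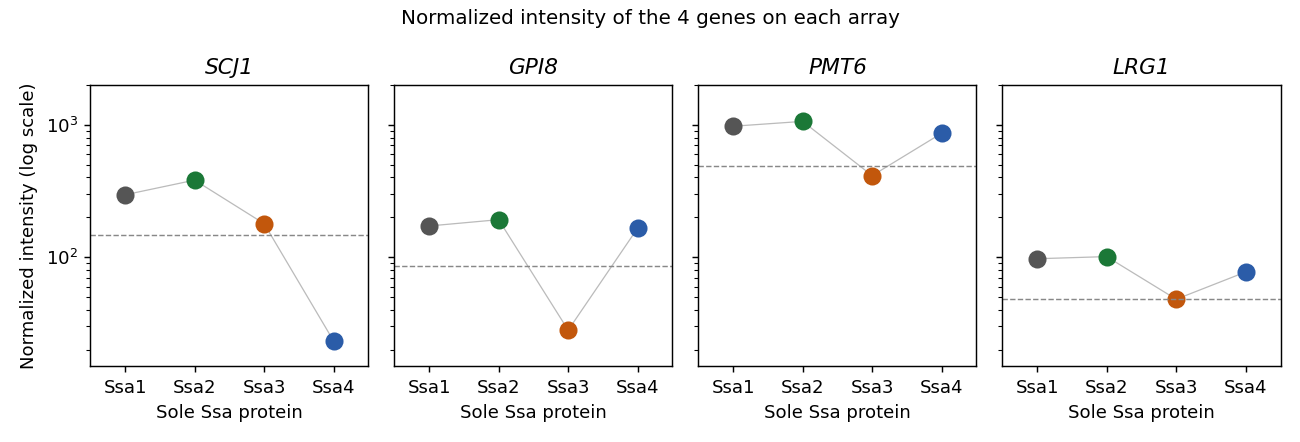
Normalized intensity (log scale) of SCJ1, GPI8, PMT6 and LRG1 on the arrays of the strains living on Ssa1, Ssa2, Ssa3 or Ssa4, 1 array per strain; the dashed line is 0.5 times the Ssa1 value and the grey line only joins the points. SCJ1 falls below the dashed line on the Ssa4 array (23.2), GPI8 and PMT6 fall below it on the Ssa3 array (28.1 and 413), and LRG1 (48.1) lies almost on it.

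The genes shared their highest array and differed in their lowest. All 4 were highest on the Ssa2 array, which was the highest array for 16.3% of features. GPI8, PMT6 and LRG1 were lowest on the Ssa3 array (21.1% of features) and SCJ1 on the Ssa4 array (31.4%). Being below 0.5 in Ssa3 and within 2-fold of Ssa1 in the other strains, as GPI8, PMT6 and LRG1 were, held for 1.32% of features. For Ssa4 the corresponding share was 5.65%, which includes SCJ1. Counted by strain, 0 of the 4 genes were below 0.5 in Ssa2 (2.40% of all features), 3 were in Ssa3 (1.94%) and 1 was in Ssa4 (7.10%). None was above 2, against 1.35% of features in Ssa2, 2.23% in Ssa3 and 5.12% in Ssa4. The genes were chosen from these comparisons, so nothing is read from these counts.

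**Figure D2:**
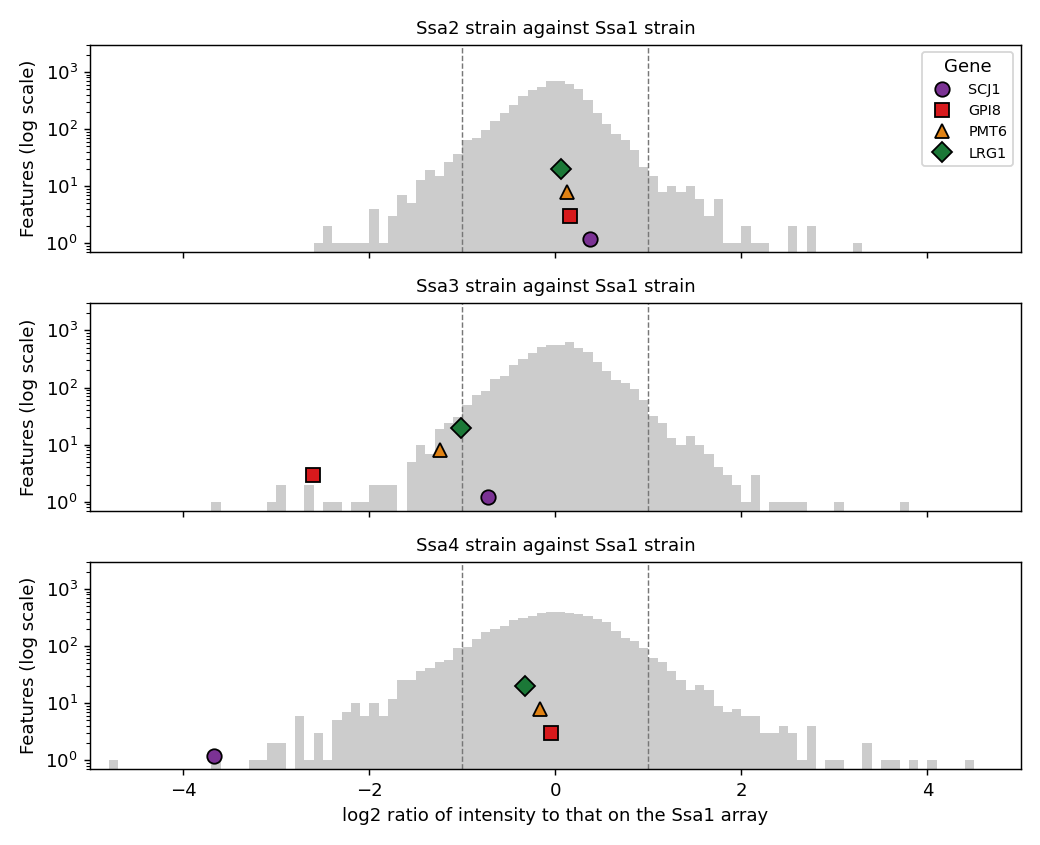
Distribution over all features of the log2 ratio of intensity to that on the Ssa1 array (grey, number of features on a log scale) for the Ssa2, Ssa3 and Ssa4 strains, with the 4 genes marked at their ratio (their height has no meaning) and 2-fold limits dashed. In Ssa2 the 4 genes lie near 0, in Ssa3 GPI8 (-2.61), PMT6 (-1.24) and LRG1 (-1.02) lie left of the limit, and in Ssa4 SCJ1 (-3.67) does.

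The names of the features imply a grid of 32 blocks on the chip, and the values of features 1, 14 and 15 places away in the same block resembled each other. The places were picked from correlations in the same data. The deposited data do not state this layout. The named neighbours of SCJ1, GPI8, PMT6 and LRG1 on it are not the genes beside them in the genome. The surroundings of SCJ1 and GPI8 on this grid were low on the same arrays as the genes themselves.

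Around SCJ1, all 6 neighbouring features were lower on the Ssa4 array than on the Ssa1 array, and 4 of them were below 0.5. RFC1, which encodes a subunit of the clamp loader of DNA replication, read 124 in Ssa1 and 19.3 in Ssa4, a ratio of 0.156. CCE1, for a mitochondrial cruciform-cutting endonuclease, had a ratio of 0.197 and LCP5, for ribosomal RNA maturation, a ratio of 0.211. Both were dim, at 47.0 and 39.8 in Ssa1. The aldehyde dehydrogenase gene ALD2 had a ratio of 0.437, and the 2 unnamed neighbours were near Ssa1 at 0.874 and 0.954. The median of the 6 ratios was 0.304, the second lowest such median of 5745 features, and a median below 0.5 was found for 0.489% of features in Ssa4 and for 1.99% of those that were below 0.5 themselves. With this median subtracted on the log2 scale, SCJ1 in Ssa4 was at 0.258 of Ssa1 and still past 2-fold. The 6 ratios were uneven, from 0.156 to 0.954, so their median need not equal the local level at SCJ1. What part the place on the chip had in the SCJ1 value was not tested.

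Around GPI8, the neighbours were near their Ssa1 level on the Ssa2 and Ssa4 arrays, with medians of 1.08 and 0.819 and none below 0.5. On the Ssa3 array 4 of the 6 were below 0.5. DOT5, for a nuclear thiol peroxidase, read 600 in Ssa1 and 96.2 in Ssa3, a ratio of 0.160. OXA1, for a mitochondrial inner membrane insertase, read 832 and 166, a ratio of 0.199. CAF16 (147 and 33.3, ratio 0.227) and the ubiquitin protease gene UBP10 (1646 and 467, ratio 0.284) were likewise low. The other two neighbours were unnamed and dim, at 14.1 and 4.33 in Ssa1, with ratios of 0.683 and 0.613. The median of 0.254 was the lowest of 5745 features, where 0.244% of features, and 7.34% of those below 0.5 themselves, had a median below 0.5. With it subtracted, GPI8 in Ssa3 was at 0.644 of Ssa1 and no longer past 2-fold. What part the place on the chip had in the GPI8 value was not tested.

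PMT6 and LRG1 had no such pocket around them on the Ssa3 array. The 6 neighbours of PMT6 ranged from 0.480 for ARL3 to 1.56 for YLR042C, with a median of 0.789, and 10.5% of features had a median as low. Its block was low as a whole, with a median ratio of 0.717 in Ssa3 and 12.8% of its 180 features below 0.5. The neighbours of LRG1 ranged from 0.579 to 1.13 with a median of 0.846, and its block had a median of 0.822. With the median of the neighbours subtracted, PMT6 was at 0.537 and LRG1 at 0.585 in Ssa3, and neither was past 2-fold. The part of position in these values was not tested either.

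**Figure D3:**
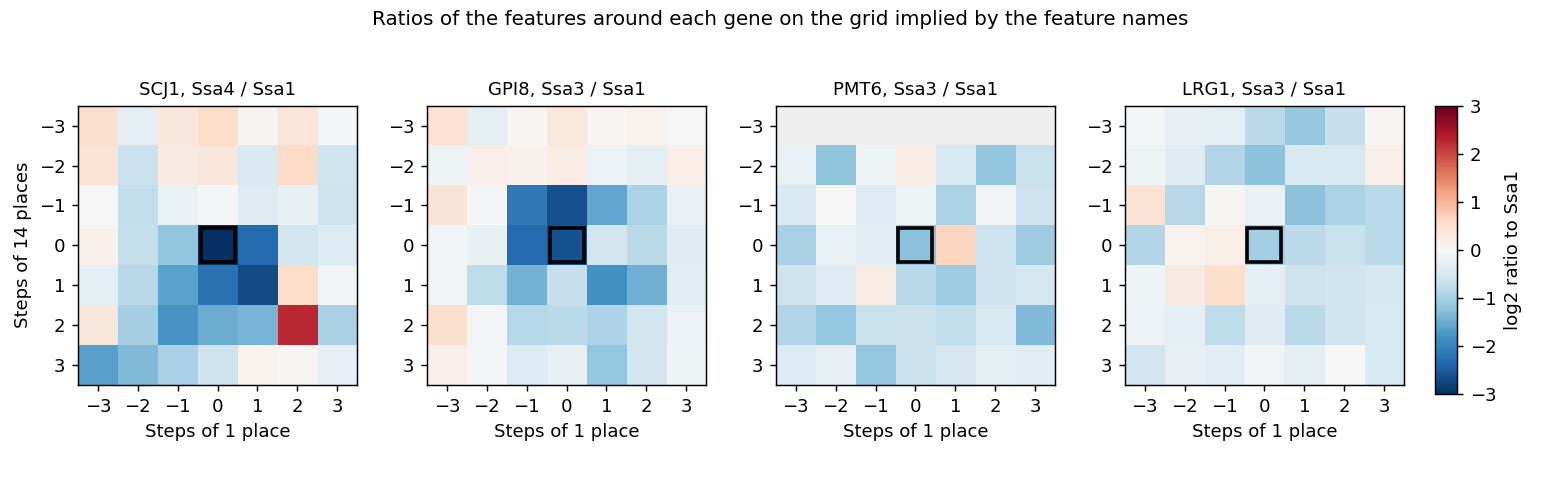
Log2 ratio to Ssa1 (colour, limited to 3 in either direction) of the features around each gene (black square) on the grid implied by the feature names, 1 place per step across and 14 places per step down, in Ssa4 for SCJ1 and in Ssa3 for the others; grey is outside the block or without a value. SCJ1 (-3.67) and GPI8 (-2.61) sit among other strongly lowered features, whose medians over 6 neighbours are -1.72 and -1.98. The neighbours of PMT6 and LRG1 are less lowered, with medians of -0.34 and -0.24, and most of them are below Ssa1.

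The choice of processing moved the genes to different degrees. SCJ1 in Ssa4 stayed past 2-fold under each of 9 alternatives, between 0.0783 and 0.258. Not all of these could differ. For SCJ1 in Ssa4 and the others in Ssa3, the median of the other 3 arrays was the Ssa1 value itself. That alternative therefore repeated the deposited ratios. Equal array medians had little to change, since the deposited medians already lay between 200.4 and 201.5. GPI8 in Ssa3 stayed past it unless the median of its neighbours was subtracted. PMT6 in Ssa3 passed the limit only where the local or block level was left in. LRG1 in Ssa3 lay so near the limit that an offset of 50 added to each intensity took it to 0.666 and a lowess curve to 0.519.

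**Figure D4:**
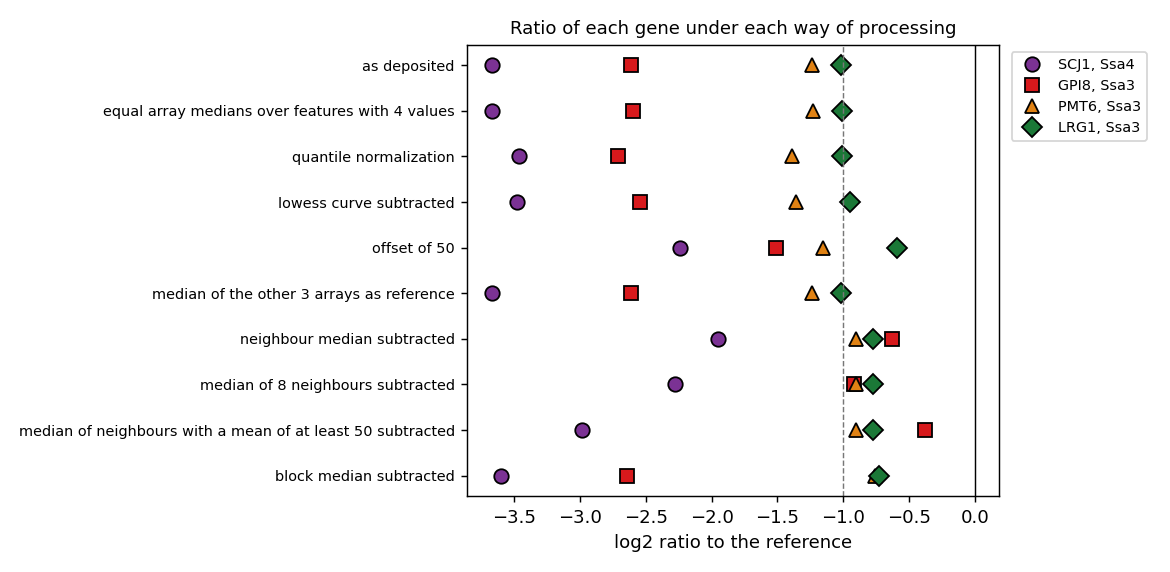
Log2 ratio to the reference of SCJ1 in Ssa4 and of GPI8, PMT6 and LRG1 in Ssa3 as deposited and under 9 alternative ways of processing; the dashed line is the 2-fold limit and the solid line is no difference. SCJ1 stays left of the dashed line throughout (lowest ratio 0.0783, highest 0.258), and GPI8 moves from -2.61 to -0.63 with the median of its 6 neighbours subtracted. With the median of the other 3 arrays as reference the points repeat those as deposited, since that median is the Ssa1 value for each.

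For each gene, the 3 named features of at least 100 on 1 or more arrays with the most similar log2 ratios in Ssa2, Ssa3 and Ssa4 were found by Euclidean distance, over these 3 ratios. For SCJ1 they were ARO9, for an aromatic aminotransferase (distance 0.82), SIM1, for a cell wall protein of the SUN family (1.09), and PHO89, for a sodium and phosphate cotransporter (1.21). ARO9 read 442 in Ssa1, 365 in Ssa2, 222 in Ssa3 and 46.7 in Ssa4, and SIM1 read in that order 1204, 1075, 785 and 182. Neither lay in the block of SCJ1. Among the 10 most similar features, named or not, 2 were in that block, which held 3.00% of the candidates. Of the 10, 1 was among the 6 neighbours of SCJ1. For GPI8 the most similar were DOT5 (0.29), OXA1 (0.38) and CAF16 (0.52), which were also its neighbours on the grid. For PMT6 they were SPB1, VBA4 and CCH1, each at a distance of 0.11, and SPB1 and CCH1 were in the block of PMT6. For LRG1 they were SRP72 (0.11), PCC1 (0.18) and CCH1 (0.21), all in other blocks. SRP72 encodes a subunit of the signal recognition particle, which brings secretory proteins to the ER, and read 351, 384, 173 and 295 in the same order.

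Few other genes of the same pathways had a named feature, since a name required a listing for a change past 2-fold. Of 29 genes for GPI anchor synthesis and transfer, the other one named was GWT1, which encodes the inositol acyltransferase of the anchor precursor. GWT1 read 111 in Ssa1, 111 in Ssa2, 54.8 in Ssa3 and 37.8 in Ssa4. It was low on both arrays of heat-inducible proteins, at 0.491 in Ssa3 and 0.339 in Ssa4, whereas GPI8 was low on the Ssa3 array. The neighbours of GWT1 had a median of 0.549 in Ssa3, and with it subtracted GWT1 was at 0.895 there and at 0.419 in Ssa4. Of 19 O-mannosylation genes the other named one was PMT2, the partner of Pmt1 in the main mannosyltransferase complex. PMT2 read 60.0 in Ssa1, 50.9 in Ssa2, 61.3 in Ssa3 and 24.3 in Ssa4. Its low array was that of Ssa4 (ratio 0.406, or 0.523 with the neighbours' median subtracted) and that of PMT6 was Ssa3.

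Of 31 ER folding genes, SEC63 and CWH41 were named beside SCJ1. SEC63, for the J-protein of the ER translocon that also works with Kar2, read 433, 642, 193 and 419 in the same order. Its ratio of 0.445 in Ssa3 and 0.967 in Ssa4 was the reverse of that of SCJ1 as to which of these arrays was the lower, but with the neighbours' median subtracted SEC63 in Ssa3 was at 0.647 and at 0.732 in Ssa4. CWH41, for the glucosidase that starts the trimming of N-glycans, read 104, 103, 88.1 and 46.1, with a ratio of 0.443 in Ssa4. Of 31 genes of the cell wall integrity pathway, the other named one was FKS1, for a catalytic subunit of glucan synthase, which Rho1 activates. FKS1 read 807, 861, 1020 and 383, so it was above Ssa1 in Ssa3 (1.26) where LRG1 was low, and at 0.475 in Ssa4. With the neighbours' median subtracted, FKS1 was at 0.947 in Ssa3 and 0.632 in Ssa4.

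Of 57 genes for cell wall proteins and wall enzymes, 16 were named. In Ssa4, 11 of these were below 0.5 and 1 was above 2, where 7.10% and 5.12% of all features, and 43.2% and 30.9% of the 946 named ones, were. In Ssa3, 3 were below 0.5 and 2 were above 2, beside 1.94% and 2.23% of all features and 11.8% and 13.3% of the named ones. In Ssa2, 3 were below 0.5 and 0 above 2, beside 2.40% and 1.35% of all features and 14.2% and 8.03% of the named ones. With the neighbours' median subtracted, the counts below 0.5 were 10 in Ssa4, 3 in Ssa3 and 4 in Ssa2, not all of them the same genes. In Ssa3, CDA1 (0.566) left and FLO11 (0.476, dim at 29.9 in Ssa1 and 18.8 in Ssa3) entered. In Ssa4, GAS4 (0.608) and FLO11 (0.534) left and CDA1 (0.359) entered. CDA1 (0.423) also entered in Ssa2. Among the 11 low in Ssa4 as deposited was the glucanosyltransferase gene GAS1, for a GPI-anchored enzyme. GAS1 was at 0.328 of Ssa1, with 873 in Ssa1 and 286 in Ssa4. TOS6, for a GPI-type wall protein, was at 0.205 and SCW4, for a glucanase-like wall protein, at 0.361. Of the 11, only GAS1, TOS6, SCW4, CWP2 and SAG1 read at least 100 in both Ssa1 and Ssa4. The rest read below 100 in Ssa4. Of these, GAS3 (85.8 in Ssa1 and 36.0 in Ssa4), GAS4 (84.2 and 41.3), FLO11 (29.9 and 14.6) and FIG2 (25.2 and 9.66) were below 100 in both. The feature above 2 in Ssa4 was SPI1, for a GPI-anchored wall protein of the weak acid response, which read 6534, 9407, 9904 and 27248. These 16 genes were listed for a change, so the counts do not describe wall genes as a whole. Below 0.5 in Ssa2 were FLO5 (0.419), a flocculin whose relatives are near-identical so that its feature may not be specific, the agglutinin gene SAG1 (0.405) and CDA2 (0.406).

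The wall genes below 0.5 in Ssa3 were UTR2, CDA1 and CDA2. UTR2, for a chitin transglycosylase, read 103 in Ssa1, 179 in Ssa2, 25.9 in Ssa3 and 36.0 in Ssa4. It was low on both arrays of heat-inducible proteins and highest on the Ssa2 array, and its ratio of 0.252 in Ssa3 stayed at 0.252 with the neighbours' median subtracted. CDA1 and CDA2, for the chitin deacetylases of the spore wall, were at 0.423 and 0.259 in Ssa3, and at 0.566 and 0.342 with that median subtracted. CDA2 was lower than in Ssa1 on each of the other arrays, at 0.406 in Ssa2 and 0.129 in Ssa4. The wall genes above 2 in Ssa3 were DSE2, for a daughter cell wall protein (439 in Ssa1 and 984 in Ssa3), and the chitinase gene CTS1 at 2.53, which was dim on every array (5.92 in Ssa1).

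**Figure D5:**
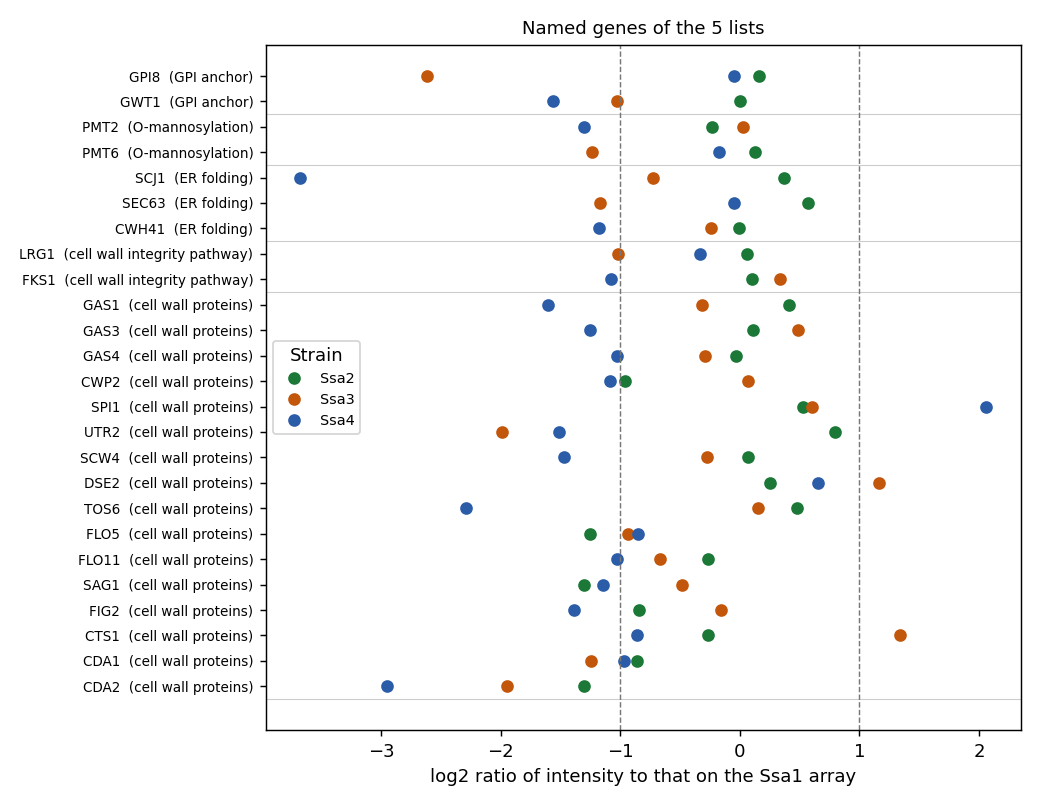
Log2 ratio of intensity to that on the Ssa1 array in the Ssa2, Ssa3 and Ssa4 strains for every gene of the 5 lists that has a named feature, grouped by list, with the 2-fold limits dashed. In the last group 11 of 16 genes lie left of the limit in Ssa4 and 3 in Ssa3, and SPI1 lies right of it in Ssa4 (ratio 4.17).

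In the genome, no annotated gene overlaps SCJ1, GPI8, PMT6 or LRG1. SCJ1 lies between CEF1 and GAS3, and of these GAS3, a relative of GAS1, has a named feature, which read 85.8 in Ssa1, 92.3 in Ssa2, 120 in Ssa3 and 36.0 in Ssa4. GAS3 was also low on the Ssa4 array, at 0.420 of Ssa1, and above Ssa1 in Ssa3, at 1.40, where SCJ1 was at 0.605. LRG1 lies between YDL241W and ADY3, and of these ADY3, for a protein of spore wall assembly, has a named feature, which read 310, 205, 125 and 315. Like LRG1 it was lowest on the Ssa3 array, at 0.404. The genes beside GPI8 and PMT6 had no named feature.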

How the data were processed

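The authors took the median foreground of each Cy5 spot, kept spots above the background of blank spots, subtracted the mean background and scaled the arrays to a common median. The deposited unit is thus a normalized intensity, not on a log scale. The deposited descriptions give exponentially growing cultures of 5 ml and 8 pooled extractions per array, whereas the methods of the study give another number of extractions and overnight growth. Feature names came from 955 rows of the study's gene lists, all of them equal to a single feature in the 4 intensities (relative tolerance 1e-05). Ratios to Ssa1 were formed without an offset or a filter, and 0.5 and 2 were the limits. No test was possible with 1 array per strain. Neighbours were those 1, 14 and 15 places away, at least 3 with a value. The genes named are the 4 members, SSA2, for each member the 3 most similar named features of at least 100 on 1 array, and list genes with a name. Neighbours on the chip or in the genome were named after their values were seen. The members and lists were chosen with earlier results of these data known. No sequence was read, so the planned search for promoter motifs was not made. The alternatives were equal medians over features with 4 values, quantile normalization, a lowess curve (fraction 0.4), an offset of 50, the median of the other 3 arrays as reference, and neighbour or block medians subtracted. The counting was tested on simulated data. Synonyms of list genes and gene order came from the R64 table of RefSeq. The software was matplotlib 3.10.9, statsmodels 0.14.6, pandas 2.3.3, numpy 2.4.6 and scipy 1.17.1 under Python 3.11.15.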

Additional observations from a re-analysis of the deposited data

How the results depend on the processing

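No paired analysis was possible because each strain has 1 array, and for the same reason no replicate could be left out. Of 108 values (12 ratios to Ssa1 under 9 alternatives), 94 kept their side of the 2-fold limit, 13 were no longer past it and 1 passed it. The 94 include values that could not move. For each gene in Ssa3 and Ssa4, the median of the other 3 arrays was the Ssa1 value. That alternative could only repeat the deposited ratio. No value past 2-fold changed direction, but 6 values near 1 crossed it, all with neighbour medians subtracted: GPI8 in Ssa4 went from 0.966 to 1.18, 1.18 and 1.03, and LRG1 in Ssa2 from 1.04 to 0.975 each time. The value that passed the 2-fold limit was SCJ1 in Ssa2, at 2.13 with the median of the other 3 arrays as reference. That median was the Ssa3 value of 179, so 2.13 is the ratio of Ssa2 to Ssa3. With the neighbour median subtracted, GPI8 in Ssa3 was at 0.644, PMT6 at 0.537 and LRG1 at 0.585. Of the alternatives chosen after seeing the data, 8 neighbours gave 0.529 for GPI8, neighbours with a mean of at least 50 gave 0.768, and both left PMT6 at 0.537 and LRG1 at 0.585. For PMT6 and LRG1 the minimum of 50 removed no neighbour, so it only repeated the first neighbour subtraction. The block median, also added later, gave 0.591 for PMT6 and 0.601 for LRG1. LRG1 was at 0.519 with a lowess curve and at 0.666 with an offset of 50. The cause of these shifts was not tested.

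Counts of features above 2 and below 0.5 were 78 and 139 in Ssa2, 129 and 112 in Ssa3, and 296 and 410 in Ssa4. With an offset of 50, which shrinks ratios of dim features, they were 39 and 37, 64 and 38, and 193 and 115. A 3-fold limit gave 24 and 24, 26 and 16, and 82 and 104. A minimum of 100 on both arrays gave 38 and 38 in Ssa2, 74 and 49 in Ssa3, and 216 and 120 in Ssa4, where more features were then above 2 than below 0.5. Below 0.5 in Ssa3 were 74 features with the neighbour median subtracted, 68 with 8 neighbours and 69 with the block median. SCJ1 in Ssa4 (23.2) and GPI8 in Ssa3 (28.1) were dim, and with the offset SCJ1 was at 0.211 of Ssa1.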
